A study of Mus musculus with 4 samples.

Results

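The unfolded protein response and the secretory pathway were examined through 39 genes across the immune cells of the mouse nasal mucosa. The genes were taken by symbol from a list that holds stress sensors and transcription factors, chaperones, enzymes of disulfide formation, prolyl isomerases, the degradation machinery and the translocon, and all 39 were found among the 27998 genes listed in each library. Each was counted as UMIs (unique molecular identifiers, 1 per captured mRNA molecule) in 11 cell classes of 4 single-cell RNA-seq libraries, and plasma cells and plasmacytoid dendritic cells (pDC) were set against myeloid cells.

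The endoplasmic reticulum folds, modifies and proofreads the proteins that a cell secretes or displays. When unfolded protein builds up in it, membrane sensors send signals through the transcription factors XBP1, ATF6 and ATF4, and genes for chaperones, oxidoreductases, the translocon and ER-associated degradation (ERAD) are transcribed. Plasma cells, which secrete antibody, and pDC, which can secrete large amounts of type I interferon, are both known for a wide endoplasmic reticulum and for a need of XBP1.

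The libraries held CD45+ cells of nasal mucosa from C57BL/6 mice of 8 weeks, and each of 4 treatments gave 1 library: Vehicle and Ribavirin, whose labels name no allergen, and Vehicle-OVA and Ribavirin-OVA. The allergen, ovalbumin (OVA), is the one used to model allergic rhinitis, and ribavirin is an antiviral drug that the series describes as a nasal spray. The protocol names magnetic beads for the enrichment of CD45+ cells while the series text names flow sorting, and the number of mice behind a library is not stated. With 1 library per group there was no replicate and no test, so that values are given with exact 95% intervals that cover counting error only, and a difference between libraries cannot be told apart from a difference between the preparations.

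The deposited matrices held 10311 to 28277 cell barcodes per library with a median of 3389 to 4952 UMIs each, and any pair of libraries shared between 57 and 174 barcodes. After filtering, 8817 to 25727 cells per library remained, of which 72.0% to 77.5% were placed in a class by at least 3 of its marker genes, none of which is among the 39. Cells with markers of more than 1 class made up 17.7% to 21.0% and were left out, among them 1121 cells led by plasma cell markers. Plasma cells numbered 1222 in Vehicle, 58 in Vehicle-OVA, 545 in Ribavirin and 291 in Ribavirin-OVA, and pDC 896, 157, 494 and 189. Macrophages numbered 924 to 3294 and neutrophils 2549 to 11105. The classes were checked against markers that the gate did not use. Prdm1 and Irf4 had their highest level in plasma cells, and Irf8, Tcf4 and Bst2 in pDC, among the 11 classes in each of the 4 libraries. Epithelial cells, which CD45 enrichment should remove, and mast cells and basophils, with at most 25 cells in a library, were not compared, which leaves 9 classes.

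No immunoglobulin gene is listed in the matrices, so antibody mRNA is not part of any total, and levels in plasma cells are shares of the other mRNA. Levels are UMIs per 1000000 UMIs of the class (CPM). Folds are ratios of CPM, and log2 ratios have 1 CPM added to both sides.

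Several of the 39 genes are classical targets of ATF6 and XBP1, whose binding site, the ER stress response element (ERSE), is written as CCAAT and CCACG held 9 bases apart. RefSeq promoters (GRCm38.p6, 250 bases before to 50 after the annotated start) were given for 33 of the 39 genes, and 8 of these 33 (24.2%) held an exact ERSE on either strand. Over all 27025 genes with a promoter the share was 0.137%, or 37 genes. The windows below run 5′ to 3′ on the strand of the gene, with 25 bases on each side of the element, and are shown because they are what these chaperone and ERAD genes share in sequence. Capitals mark the ERSE, which reads as its reverse complement in Creld2, in Derl3 and in the first of the 2 windows of Hsp90b1.
Hspa5, chr2:34772000-34772068, plus strand: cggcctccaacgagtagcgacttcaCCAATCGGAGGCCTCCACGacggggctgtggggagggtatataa
Hsp90b1, chr10:86705508-86705576, minus strand: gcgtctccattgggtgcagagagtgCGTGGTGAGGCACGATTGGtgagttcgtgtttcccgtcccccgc
Hsp90b1, chr10:86705613-86705681, minus strand: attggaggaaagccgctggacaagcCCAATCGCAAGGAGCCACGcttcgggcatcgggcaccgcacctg
Canx, chr11:50325775-50325843, minus strand: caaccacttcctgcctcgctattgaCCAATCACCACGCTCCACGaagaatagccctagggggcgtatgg
Dnajc3, chr14:118937802-118937870, plus strand: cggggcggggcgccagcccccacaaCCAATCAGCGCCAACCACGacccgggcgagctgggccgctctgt
Creld2, chr15:88819495-88819563, plus strand: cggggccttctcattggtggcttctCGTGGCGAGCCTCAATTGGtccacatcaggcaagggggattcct
Pdia6, chr12:17266466-17266534, plus strand: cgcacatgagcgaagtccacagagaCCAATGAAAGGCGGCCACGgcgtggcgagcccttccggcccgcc
Derl3, chr10:75893217-75893285, plus strand: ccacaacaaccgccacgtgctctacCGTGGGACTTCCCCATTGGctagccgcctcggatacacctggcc
Syvn1, chr19:6046507-6046575, plus strand: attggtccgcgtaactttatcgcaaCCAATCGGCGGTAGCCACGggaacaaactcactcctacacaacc

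The elements began between 44 bases (Syvn1) and 212 bases (the second window of Hsp90b1) before the start. The other motif searched, TGACGTGG, is bound by XBP1 and ATF6, and it ends in CGTGG, the reverse complement of the CCACG of the ERSE. It was held by promoters of 2 of the 33 genes, Txndc5 and Txndc11, against 193 of 27025 genes (0.714%). It is in capitals in the windows that follow.
Txndc5, chr13:38528020-38528077, minus strand: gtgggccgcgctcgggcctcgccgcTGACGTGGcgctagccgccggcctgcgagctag
Txndc11, chr16:11134602-11134659, minus strand: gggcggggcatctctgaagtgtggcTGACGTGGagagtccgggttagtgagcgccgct

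The match is of letters alone, and the half-sites themselves are common. CCAAT was held by 41.1% of all genes with a promoter and by 26 of the 33 (78.8%), CCACG by 35.5% and by 27 (81.8%). The genes that held an ERSE differed widely in how far plasma cells stood above macrophages: Derl3 and Creld2 were far higher and Canx was not.

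The 39 genes together took a larger share of the mRNA in plasma cells than in any other class. They took 4.33% to 5.25% of all plasma cell UMIs, against 0.915% to 1.05% in pDC, 0.546% to 0.719% in macrophages, 0.466% to 0.563% in monocytes and 0.328% to 0.388% in neutrophils. In single plasma cells the median share was 4.19% to 4.79%, and the 10th percentile of plasma cells, 2.82% to 3.29%, lay above the 90th percentile of pDC, 1.19% to 1.33%, in each library. The plot of this share shows plasma cells apart from the other classes, with pDC next.

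**Figure D1:**
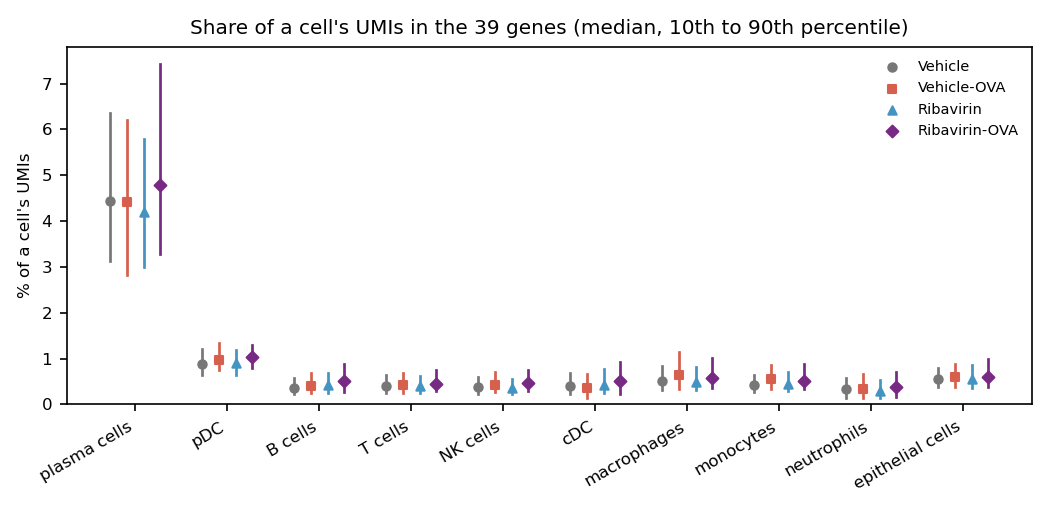
Share of a cell's UMIs that fell on the 39 genes (y axis, %) in 10 cell classes (x axis) and 4 libraries. Symbols are the median over cells and bars run from the 10th to the 90th percentile; plasma cells sit at medians of 4.19% to 4.79% and pDC at 0.890% to 1.03%, while the highest median of any other class is 0.643% (macrophages of Vehicle-OVA).

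Set against macrophages, 32 of the 39 genes were at least 2-fold higher in plasma cells in all 4 libraries and none was 2-fold lower in all 4. Over all 12706 genes with at least 50 UMIs, 8.87% were higher and 16.7% lower by the same rule. Of the 32, Chac1 passed the minimum of 50 UMIs through its counts in plasma cells. The median log2 ratio of the 39 genes was 2.70 in Vehicle, 2.73 in Vehicle-OVA, 2.77 in Ribavirin and 2.79 in Ribavirin-OVA, and that of all genes lay between -0.23 and 0.01. The order of the groups by median was prolyl isomerases with Mzb1 (8.11), disulfide formation (3.53), ERAD (2.99), translocon and signal peptidase (2.71), chaperones (2.43) and transcription factors with their targets (1.53).

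**Figure D2:**
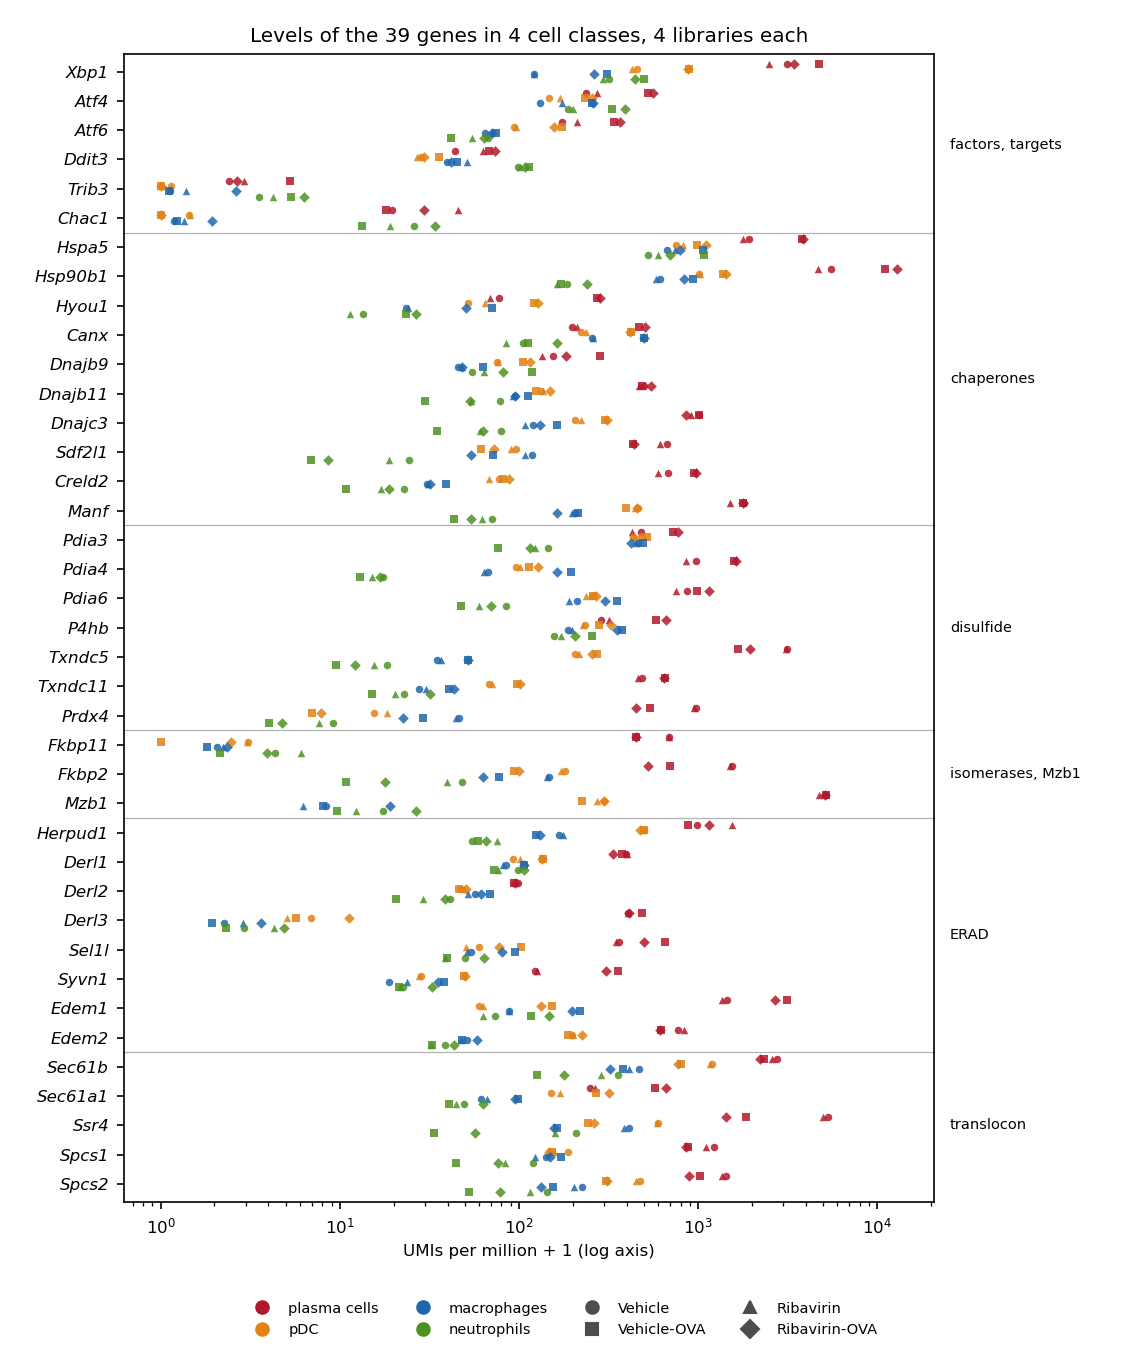
Levels of the 39 genes in UMIs per 1000000 UMIs plus 1 (x axis, log scale), ordered by role, in plasma cells, pDC, macrophages and neutrophils. Each point is 1 library, with symbols for the library; plasma cells lie to the right of the other 3 classes for most genes, and neutrophils lie to the right of plasma cells for Ddit3.

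Xbp1, the transcription factor of the IRE1 branch, was at 3156 and 4711 CPM in plasma cells under vehicle, without and with OVA, and at 2493 and 3454 CPM under ribavirin. In macrophages it was at 121, 309.5, 120.4 and 263 CPM, so that plasma cells were 13.2-fold to 26.1-fold higher. All 4 plasma cell values lay above every value of the other classes. Atf6, which is cut at the Golgi to release an active factor, was 2.73-fold to 5.23-fold higher in plasma cells. Atf4, which is made when general translation is held back, was 1.59-fold to 2.17-fold higher and did not reach 2-fold in each library, and the same held for Ddit3 (CHOP, a factor tied to cell death under stress) at 1.11-fold to 1.79-fold.

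Chac1 and Trib3 are both targets of ATF4, the former an enzyme that breaks down glutathione and the latter a pseudokinase. Chac1 had 252, 8, 329 and 137 UMIs in plasma cells, in the order Vehicle, Vehicle-OVA, Ribavirin, Ribavirin-OVA that is kept from here on, and 6, 2, 8 and 13 in macrophages, or 31.0-fold to 131-fold, with an interval of 14.6 to 706 in Vehicle-OVA. Trib3 had between 2 and 19 UMIs in plasma cells and between 1 and 23 in macrophages and was too sparse to be placed.

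Among the chaperones, 9 of 10 passed 2-fold in all libraries. Hspa5, which encodes BiP, the Hsp70 of the endoplasmic reticulum, was at 1931, 3821, 1787 and 3841 CPM in plasma cells and at 674, 1068, 748 and 792 CPM in macrophages. The folds were 2.39 to 4.85, and the 2 groups of values did not overlap. Hsp90b1, its Hsp90 counterpart GRP94, differed more, with 4690 to 12897 CPM against 580.0 to 938 CPM and folds of 8.09 to 15.5. The cochaperone Dnajc3 was 6.17-fold to 8.52-fold higher, Dnajb11 4.39-fold to 5.79-fold and Dnajb9 2.82-fold to 4.53-fold. Creld2 and Manf, which are both small proteins induced by ER stress, were 19.8-fold to 31.4-fold and 7.61-fold to 11.0-fold higher. Sdf2l1, a partner of BiP and ERdj3, was 5.72-fold to 8.25-fold higher and Hyou1, a nucleotide exchange factor of BiP, 2.94-fold to 5.69-fold. Canx, the lectin chaperone calnexin, was the exception, at 0.774-fold to 1.01-fold.

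Of the enzymes that form and reshuffle disulfide bonds, 5 of 7 were 2-fold higher in plasma cells. Txndc5 was at 3123, 1679, 3083 and 1944 CPM in plasma cells and 34.0, 50.7, 35.8 and 50.9 CPM in macrophages, or 33.1-fold to 91.9-fold higher. Prdx4, the peroxiredoxin of the endoplasmic reticulum, was 19.0-fold to 21.9-fold higher, with intervals of 15.9 to 22.8 in Vehicle-OVA and 20.5 to 23.4 in Ribavirin. Txndc11 was 15.1-fold to 18.3-fold, Pdia4 8.25-fold to 14.8-fold and Pdia6 2.82-fold to 4.14-fold higher. The remaining 2, Pdia3 (ERp57, which works with calnexin) at 0.949-fold to 1.82-fold and P4hb (protein disulfide isomerase itself) at 1.52-fold to 1.89-fold, stayed under 2-fold in all libraries. The members not called higher over macrophages in all 4 libraries were Canx, Pdia3, P4hb, Derl2, Atf4, Ddit3 and Trib3.

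The isomerase group held the genes with the widest gap, Mzb1 and Fkbp11, while Fkbp2 lay among the other members. Mzb1, a cochaperone of the B lineage that assists the folding of immunoglobulin, was at 5210, 5179, 4744 and 5093 CPM in plasma cells and at 7.34, 7.08, 5.23 and 18.0 CPM in macrophages, with ratios of 283 in Ribavirin-OVA to 907 in Ribavirin. Fkbp11, a prolyl isomerase of the secretory pathway, had ratios of 331 to 645 against 7 to 34 UMIs in macrophages, and Fkbp2 was 8.36-fold to 10.6-fold higher. Fkbp11, Derl3 and Mzb1 were the 5th, 7th and 9th of the genes that led plasma cells over the mean of the other classes, and the gate had used none of them.

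The low Mzb1 levels outside the B lineage went with those of Jchain, the joining chain of secreted antibody and a plasma cell gene. In plasma cells there were 4.84 Mzb1 UMIs per 100 Jchain UMIs in Vehicle, 12.9 in Vehicle-OVA, 4.70 in Ribavirin and 11.1 in Ribavirin-OVA. Macrophages had 3.68, 12.4, 3.37 and 11.4, and neutrophils 3.93, 8.15, 3.72 and 11.5. The ratio was higher in both OVA libraries in all 3 classes. In macrophages it was near that of the plasma cells of the same library, and in neutrophils of Vehicle-OVA it was lower, at 8.15 beside 12.9. The low Mzb1 levels of macrophages and neutrophils are read as background, a word used here for counts that went with those of Jchain. Their origin was not tested. Fkbp11 in macrophages, at 0.537, 1.45, 0.802 and 0.854 per 100 Jchain UMIs beside 0.642, 1.13, 0.678 and 0.978 in plasma cells, is read in the same way. The ratios of Mzb1 and Fkbp11 over macrophages rest on these low counts, and what part of them the macrophages made was not tested. Other low counts followed Jchain less closely. Derl3 in macrophages, on 40, 8, 44 and 37 UMIs, was higher relative to Jchain than in the plasma cells of the same library in all 4 libraries. Fkbp11 in neutrophils was likewise higher except in Vehicle-OVA, and furthest above in Ribavirin, on 130 UMIs. The reading as background is not extended to these counts, and their origin was not tested. With mixed cells kept in their leading class, an alternative chosen after seeing the data, the median log2 ratio over macrophages moved from 9.31 to 7.63 for Mzb1, from 8.11 to 7.10 for Fkbp11 and from 7.32 to 6.44 for Derl3, an ERAD gene. In pDC there were 154 to 419 Mzb1 UMIs per 100 Jchain UMIs and in B cells 100 to 186, far above the plasma cells of the same library, and Mzb1 there is not read as background.

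The ERAD genes were higher in plasma cells in 7 of 8 cases. Derl3, a channel component of ERAD, was at 406, 487, 406 and 411 CPM in plasma cells and at 1.26, 0.944, 1.89 and 2.63 CPM in macrophages, which is 156-fold (113 to 222) in Ribavirin-OVA to 516-fold (258 to 1210) in Vehicle-OVA. Its relatives were less apart, Derl1 at 3.14-fold to 4.98-fold and Derl2 at 1.37-fold to 1.85-fold, the latter under 2-fold in all 4 libraries. Edem1 and Edem2, which trim mannose from misfolded glycoproteins, were 13.7-fold to 16.7-fold and 10.7-fold to 18.1-fold higher. Sel1l and Syvn1, the adaptor and the ubiquitin ligase of the same complex, were 6.28-fold to 6.94-fold and 5.46-fold to 9.66-fold higher, and Herpud1, which scaffolds it, 5.89-fold to 8.87-fold. Within the 3 Derlin genes the fold was widest for Derl3, which had only 8 to 44 UMIs in the macrophages of a library, and Derl1 also passed 2-fold in all 4 libraries.

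The 5 genes of the translocon and the signal peptidase were all higher. Sec61a1, the pore, was 4.06-fold to 6.97-fold and Sec61b, its small subunit, 5.96-fold to 6.88-fold higher. Ssr4, a subunit of the translocon-associated complex, was at 5315, 1858, 5009 and 1438 CPM in plasma cells and at 412, 163, 387 and 156 CPM in macrophages. The folds were 9.21 to 13, although both classes had their lowest levels in the OVA libraries. The signal peptidase subunits Spcs1 and Spcs2 were 5.18-fold to 9.0-fold and 6.38-fold to 6.75-fold higher.

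**Figure D3:**
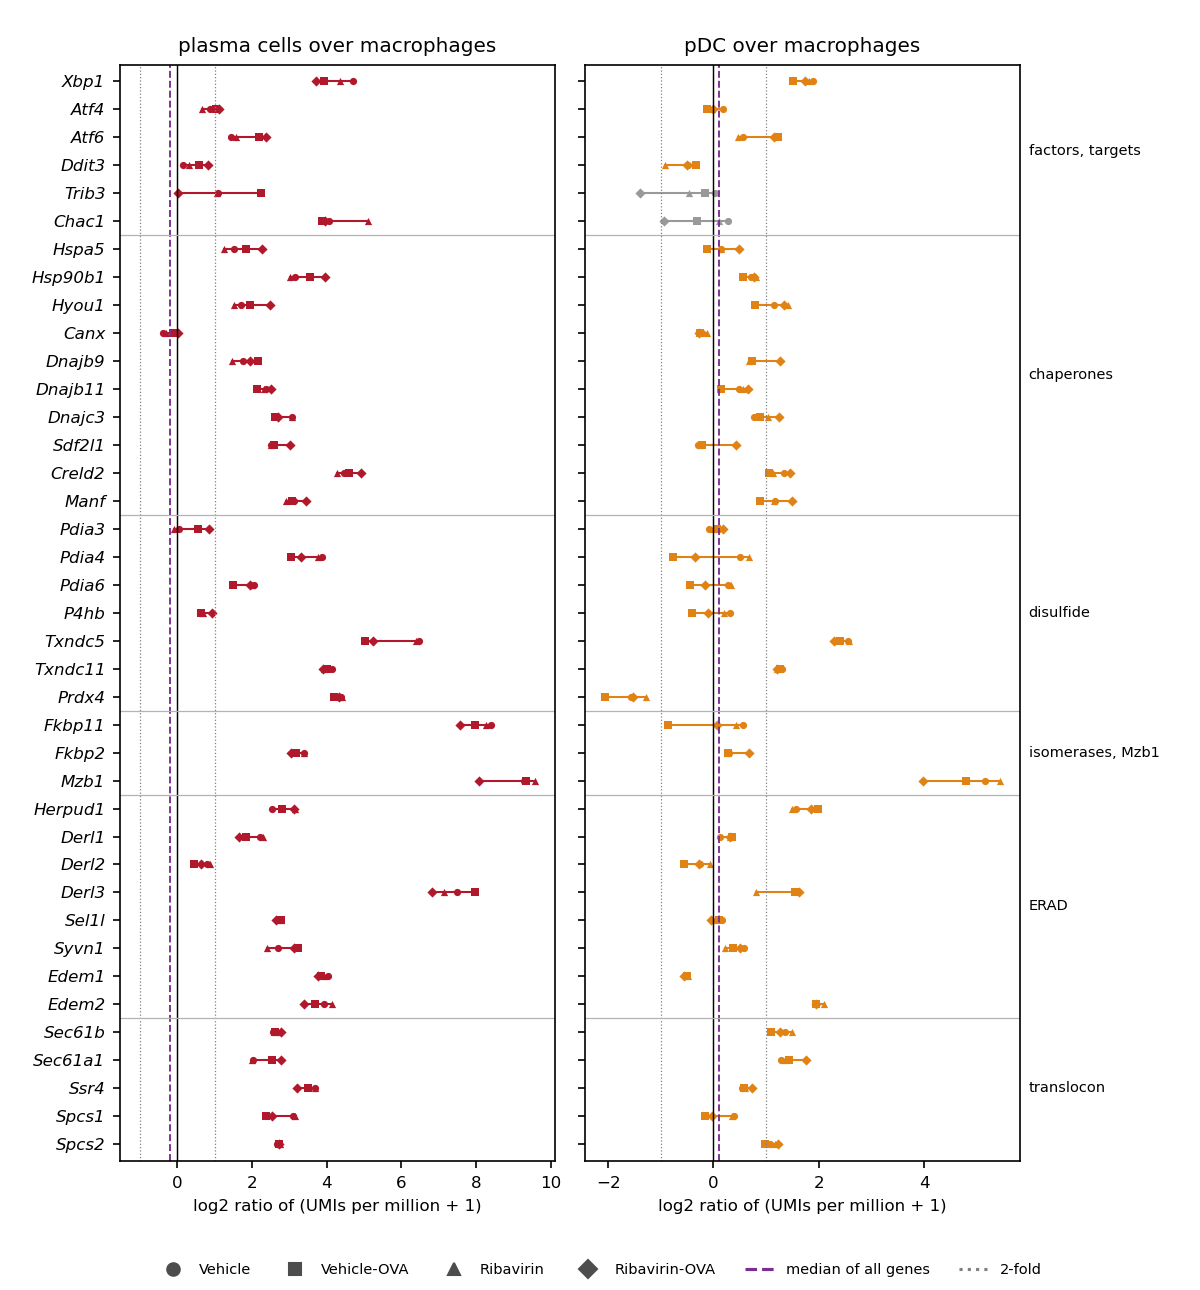
Log2 ratio of (UMIs per 1000000 UMIs + 1) of plasma cells (left) and pDC (right) over macrophages for the 39 genes, ordered by role. Points are the 4 libraries, lines join the lowest and the highest, grey marks genes under 50 UMIs, the dashed line is the median of all genes and dotted lines mark 2-fold; plasma cells exceed 2-fold in all libraries for 32 genes and pDC for 9.

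The difference was also seen against the other classes. In all 4 libraries plasma cells were 2-fold higher for 31 of 38 genes over monocytes, beside 11.2% of all genes, for 33 of 39 over neutrophils, beside 14.2%, and for 33 of 38 over conventional dendritic cells, beside 8.58%. They were 2-fold higher for 32 of 38 over B cells, beside 6.75% of all genes, and for 33 of 39 over T cells, beside 6.13%. Over pDC, the class next to them, it was 27 of 38, beside 7.7% of all genes, with a median log2 ratio of 2.06. Of 67 further genes of the same pathways, 66 had at least 50 UMIs, and 49 of these were higher over macrophages and 1 lower, with a median log2 ratio of 1.91. The 5 highest were Bhlha15 (a factor of secretory cells, 5.24 to 6.98), Sec11c (4.57 to 5.10), Asns (4.24 to 5.20), Kdelr3 (3.75 to 4.46) and Tram2 (3.71 to 4.69) on the log2 scale. The 5 lowest were Nucb2 (-3.11 to -1.39), Mcfd2 (-1.06 to -0.79), Ppp1r15a (-0.63 to -0.21), Sesn2 (-1.05 to -0.17) and Pdia5 (-2.45 to -0.12).

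Gated plasma cells were 4.75%, 0.332%, 2.69% and 3.30% of the cells kept in the 4 libraries. The part of a gene's UMIs that lay in them differed between libraries. It is given of all kept cells, those left out as mixed or not placed included. They held 80.8% of the Mzb1 UMIs in Vehicle and 10.7% in Vehicle-OVA, 75.0% and 45.6% in the ribavirin libraries without and with OVA. For Xbp1 the shares were 55.5%, 3.65%, 34.2% and 27.9%, and for Canx 9.05%, 0.825%, 5.73% and 8.08%. The low shares of Vehicle-OVA go with its 58 gated plasma cells. There the Mzb1 UMIs were 2403 in plasma cells, 342 in neutrophils, 335 in pDC and 216 in B cells. Most of the remainder lay outside the 9 classes compared, so a share is not the part made by plasma cells against other classes.

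pDC held a narrower version of the pattern. In all 4 libraries 9 of 37 genes were at least 2-fold higher than in macrophages and 1 was lower, beside 9.76% higher and 11.3% lower among all 12467 genes. The median log2 ratio of the members was 0.37 to 0.67, and that of all genes 0.07 to 0.18. The 9 genes were Xbp1, Creld2, Herpud1, Edem2, Mzb1, Txndc5, Txndc11, Sec61b and Sec61a1.

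Xbp1 was at 454, 884, 427 and 873 CPM in pDC, which is 2.86-fold to 3.75-fold the level of macrophages and below every plasma cell value. Herpud1 was at 501, 498, 489.7 and 474 CPM and 2.81-fold to 4.01-fold higher than in macrophages. Mzb1 was at 296, 224, 271 and 299 CPM, or 16.6-fold to 51.8-fold higher, and Txndc5 at 206, 272, 217 and 254 CPM, or 4.99-fold to 6.06-fold higher. Edem2 was 3.91-fold to 4.34-fold higher, in contrast to its relative Edem1, which was at 0.677-fold to 0.714-fold. The translocon subunits Sec61a1 and Sec61b were 2.46-fold to 3.39-fold and 2.13-fold to 2.83-fold higher, and Spcs2, with 1.99-fold to 2.34-fold, fell just short in 1 library.

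Apart from Creld2 and Mzb1, none of the chaperone and isomerase genes was 2-fold higher in all libraries in pDC. Hspa5 was 0.919-fold to 1.40-fold the level of macrophages and Hsp90b1 1.48-fold to 1.76-fold. Fkbp11, with 0 to 14 UMIs in pDC of a library, and Derl3, with 7 to 40, had 0 to 2.06 CPM and 4.07 to 10.3 CPM, against 448 to 691 CPM and 406 to 487 CPM in plasma cells. Fkbp11 in pDC, at 0 to 1.3 UMIs per 100 Jchain UMIs beside 0.642 to 1.13 in plasma cells, is likewise read as background. Prdx4 was lower, at 14.6, 6.03, 17.4 and 6.85 CPM, or 0.213-fold to 0.40-fold, although against neutrophils its median log2 ratio was 0.78. Set against macrophages, pDC and plasma cells thus shared higher Xbp1, Mzb1 and Txndc5 and stood on opposite sides for Prdx4. Against other classes pDC stood less apart. Xbp1 was at 258, 514, 274 and 481 CPM in monocytes and 317, 500, 294 and 443 CPM in neutrophils, and pDC did not reach 2-fold over either in any library. Mzb1 in B cells, at 429, 245, 290 and 272 CPM, was near the level of pDC.

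Neutrophils had low levels of several folding genes. Against macrophages, 9 of 39 genes were at least 2-fold lower in all 4 libraries and 2 were higher, beside 12.4% lower and 6.35% higher among all 13839 genes. The share of higher members is not above that of all genes, and the 2 are described as single genes. The 9 lower genes were Hsp90b1, Pdia3, Pdia4, Pdia6, Canx, Sdf2l1, Manf, Fkbp2 and Prdx4. Pdia4 was at 12 to 16.5 CPM in neutrophils, or 0.0622-fold to 0.25-fold, and Prdx4 at 3.06 to 8.13 CPM, or 0.108-fold to 0.18-fold.

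The 2 higher genes were Chac1 and Trib3, which passed the minimum of 50 UMIs through their counts in neutrophils. Chac1 was at 24.9, 12.3, 18.2 and 33.2 CPM in neutrophils, on 307 to 542 UMIs per library, and at 0.189, 0.236, 0.343 and 0.926 CPM in macrophages. The folds were 35.9 to 132. Outside neutrophils and plasma cells the other classes compared had at most 13 Chac1 UMIs in a library, epithelial cells had 11, 0, 51 and 15, and plasma cells, at 17.2 to 44.9 CPM, overlapped with neutrophils. Trib3 was at 2.52 to 5.31 CPM in neutrophils on 49 to 172 UMIs, or 3.24-fold to 36.8-fold, with an interval from 6.52 to 1463 in Vehicle-OVA, where macrophages had 1 UMI. Ddit3, with 97.3, 113, 100.1 and 107 CPM, was highest in neutrophils among the 9 classes in each of the 4 libraries, above plasma cells at 43.2 to 72.8 CPM and macrophages at 38.9 to 50.2 CPM. Its folds over macrophages, 2.00 to 2.63, met 2-fold in 3 libraries and on the log2 scale with 1 CPM added fell just short in Ribavirin, at 0.98.

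Xbp1 and Atf4 were also higher in neutrophils than in macrophages, 1.62-fold to 2.61-fold and 1.16-fold to 1.52-fold. The group of transcription factors and their targets had a median log2 ratio of 1.07 in neutrophils over macrophages, and the chaperones one of -0.98. In plasma cells over macrophages the same groups stood at 1.53 and 2.43. The median of 1.07 includes Chac1 and Trib3, which passed the minimum through their counts in neutrophils, and is not read as a trait of the group. The median of 1.53 includes Chac1, which passed it through its counts in plasma cells, and is likewise not read as such. Atf6, of the same group, was at 66.0, 40.8, 53.6 and 62.7 CPM in neutrophils and 63.4, 73.4, 69.0 and 70.0 CPM in macrophages.

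**Figure D4:**
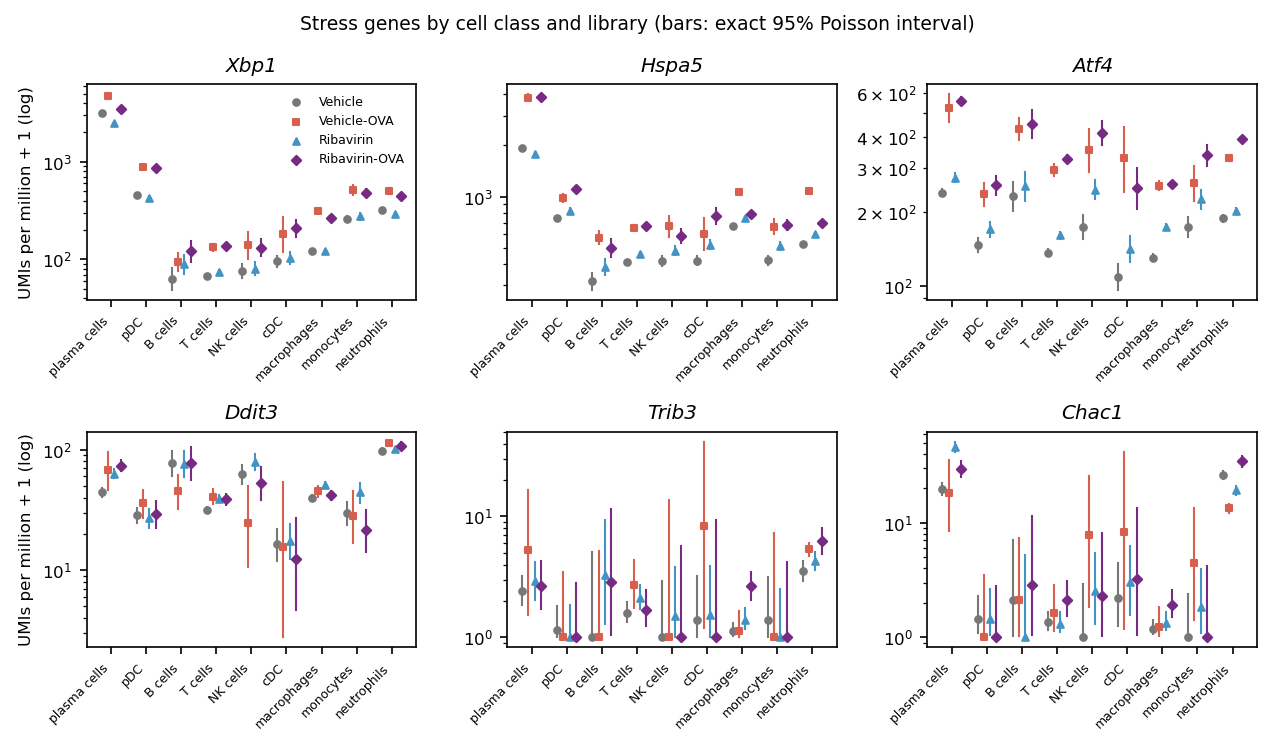
Levels of 6 genes in UMIs per 1000000 UMIs plus 1 (y axis, log scale) in 9 cell classes (x axis) and 4 libraries; bars are exact 95% Poisson intervals, which cover counting error only. Xbp1 and Hspa5 are highest in plasma cells, Ddit3 in neutrophils at 97.3 to 113 UMIs per 1000000 UMIs, and Chac1 lies at 12.3 UMIs per 1000000 UMIs or more in plasma cells and neutrophils.

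The remaining comparisons asked how the genes differed between libraries with and without OVA within 1 class. Here the median of all genes moved as well, so each count is read beside it. In plasma cells under vehicle, 15 of 38 genes were at least 1.5-fold higher with OVA and 6 lower, beside 40.4% and 14% of all 8825 genes. The median log2 ratio of the members was 0.22 and that of all genes 0.40. The Vehicle-OVA side rests on 58 plasma cells, with a median of 6376 UMIs each beside 9950 in Vehicle. Under ribavirin, 14 of 38 were higher and 7 lower, beside 44% and 7.89% of 9032 genes, with medians of 0.23 and 0.49. Taken relative to the median of all genes, the medians of the members were -0.17 under vehicle and -0.26 under ribavirin.

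In macrophages under vehicle, 13 of 35 genes were higher and 4 lower, beside 27% and 10.3% of 11006 genes, and under ribavirin 9 of 36 were higher and 5 lower, beside 24.9% and 9.46% of 11141 genes. The medians of the members, 0.36 and 0.29, lay close to those of all genes, 0.24 and 0.22. No difference of the list as a whole is read from these counts.

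The OVA ratios of the members went with the length of their transcripts. Spearman's rho between the median annotated transcript length and the log2 ratio was 0.66 over 38 members in plasma cells under vehicle, 0.62 under ribavirin, and 0.62 and 0.51 in macrophages. In all 9 classes and both OVA comparisons it lay between 0.51 and 0.82 for the members, and between 0.32 and 0.53 for all genes with a length. These are descriptions across genes that share 2 libraries. In the comparisons of ribavirin with vehicle in the same classes it was between -0.27 and 0.51.

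**Figure D5:**
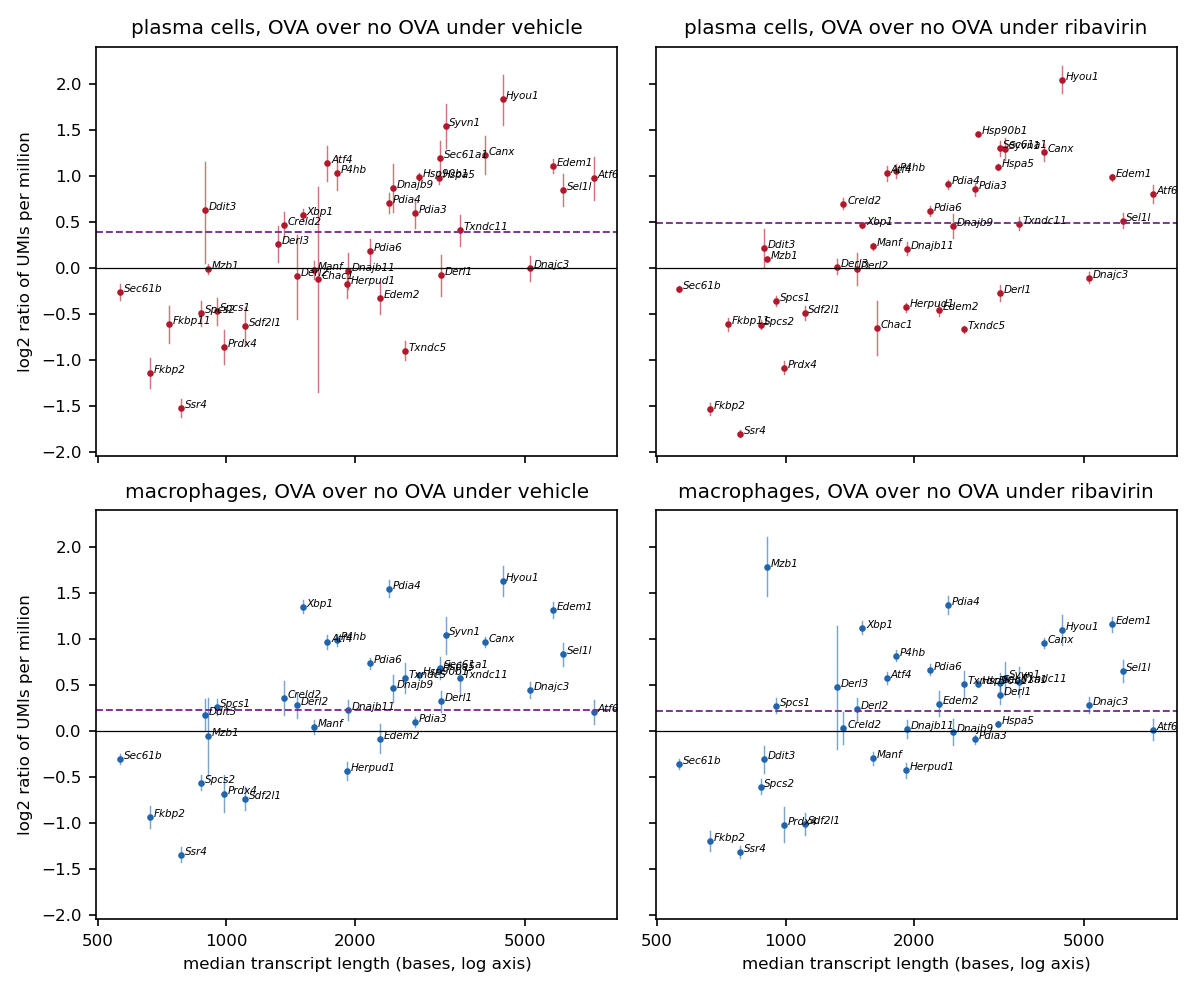
Log2 ratio of UMIs per 1000000 UMIs with over without OVA (y axis, no pseudocount) against median transcript length in bases (x axis, log scale) for the members with at least 50 UMIs, in plasma cells (top) and macrophages (bottom), under vehicle (left) and ribavirin (right). Bars are exact 95% intervals for counting error only and the dashed line is the median of all genes; Ssr4 and Fkbp2 lie lowest in all 4 panels, and Hyou1 is highest in both plasma cell panels.

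Most of the shortest transcripts were lower with OVA. Ssr4 (782.5 bases), Fkbp2 (664 bases) and Sec61b (564 bases) had a negative log2 ratio in 9 of 9 classes in both OVA comparisons, and Ssr4 and Fkbp2 were at least 1.5-fold lower in each of them. In plasma cells Ssr4 was 0.350-fold under vehicle, with an interval of 0.326 to 0.374, and 0.287-fold under ribavirin, with one of 0.280 to 0.295, and in macrophages 0.395-fold and 0.404-fold. Sdf2l1 (1108 bases) and Spcs2 (874.5 bases) were likewise below 0 in every class tested, 8 and 9 classes. Ddit3 (890 bases) and Mzb1 (904 bases) went both ways.

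Most of the longest transcripts were higher. Edem1 (5817 bases) passed 1.5-fold in 9 of 9 classes in both comparisons, with log2 ratios of 0.66 to 1.35 under vehicle and 0.82 to 1.29 under ribavirin. Hyou1 (4432 bases) passed in 6 of 6 and 8 of 8 classes tested, and in plasma cells it went from 76.1 to 272 CPM with OVA under vehicle and from 67.9 to 281 CPM under ribavirin. Canx (4030 bases) was above 0 in 9 of 9 classes in both, Atf6 (7246 bases) in 8 and 9, and Dnajc3 (5141 bases) in 7 and 8. Since short and long transcripts went apart alike in plasma cells, lymphocytes and myeloid cells, the OVA values of a single member cannot be told apart from the shift that its length class showed. What part library preparation had in it was not tested.

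The values of a few further genes, chosen after they were seen, are given with this limit. Xbp1 (1513 bases) was above 0 in 9 of 9 classes in both OVA comparisons, with medians over the classes of 0.93 under vehicle and 0.81 under ribavirin. Xbp1 in macrophages was 2.56-fold higher with OVA under vehicle, with an interval of 2.43 to 2.69, and 2.18-fold under ribavirin, with one of 2.08 to 2.29. In plasma cells it was 1.49-fold (1.43 to 1.56) and 1.39-fold (1.36 to 1.42). Pdia4 (2399 bases) in macrophages, at 66.1 and 194 CPM under vehicle and 62.7 and 162 CPM under ribavirin, was 2.93-fold and 2.59-fold higher with OVA, and Txndc5 (2619 bases) in plasma cells was lower, at 0.538-fold (0.50 to 0.577) and 0.631-fold (0.615 to 0.646).

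Ddit3, highest in neutrophils, stayed under 1.5-fold with OVA there, at 97.3 and 113 CPM under vehicle and 100.1 and 107 CPM under ribavirin. Hspa5 in neutrophils was at 524 and 1079.8 CPM under vehicle, the latter with OVA, and at 601 and 697 CPM under ribavirin. In the neutrophils under vehicle, 20 of 39 members were lower by 1.5-fold and 8 higher with OVA, beside 42.9% and 14.4% of all genes, whose median was itself at -0.45.

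The comparisons of ribavirin with vehicle were read with the same 1.5-fold limit. Without OVA, 2 of 38 were higher in plasma cells and none lower, beside 3.18% and 1.19% of all genes, and in macrophages none of 37 passed in either direction, beside 2.18% higher and 0.402% lower. The 2 were Herpud1, at 986 CPM under vehicle and 1548 CPM under ribavirin, and Chac1, at 18.7 and 44.9 CPM. With OVA, Chac1 was higher and Dnajb9 lower of 38 in plasma cells, beside 14% and 7.32% of all genes, the former on 8 and 137 UMIs with an interval of its fold from 0.821 to 3.93. In macrophages 1 of 35 was higher and none lower, beside 3.88% and 2.13%, and the 1 was Mzb1, whose level there is read as background. In neutrophils 17 of 39 were higher and 1 lower, beside 48.7% and 7.45% of all genes, whose median was at 0.56. These comparisons share libraries with those of OVA and are not independent of them.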

How the data were processed

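Nasal mucosa of C57BL/6 mice had been digested, enriched for CD45+ cells and run on a 10x Genomics Chromium instrument, with 1 library per group. The authors deposited filtered matrices of UMI counts, not normalized; their submitters' processing notes name Cell Ranger 5.0.0 and mm10, and the annotation version is not given in the sources used here. Barcodes were kept from 500 UMIs and 200 genes upward where mitochondrial genes took under 10%. A cell was placed in a class by at least 3 of its markers, with no other class over 0.5 of that number, and cells passing for more than 1 class were left out as possible doublets; no doublet caller was run. Sums over the cells of a class in a library were scaled to 1000000 UMIs (CPM), log2 ratios had 1 CPM added, and genes needed 50 UMIs. Class differences were called at 2-fold in all 4 libraries and library differences at 1.5-fold. Intervals of levels are exact Poisson and those of ratios exact conditional binomial, at 95%. With 1 library per group no test was made and no p-value is given. Transcript lengths are those of GENCODE M21 and promoters those of RefSeq GRCm38.p6. All 39 genes were named by rule, and of 67 further pathway genes the 5 highest and 5 lowest over macrophages. The genes, lists and markers were chosen with earlier results of these data known. The scripts were tested on simulated data and used Python 3.11.15, numpy 2.4.6, scipy 1.17.1, pandas 2.3.3 and matplotlib 3.10.9. Alternatives changed the filters on cells and genes, the gate, the depth, the total, the pseudocount and the myeloid class.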

Additional observations from a re-analysis of the deposited data

Results flagged for a closer look

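In 5 cases a gene was at least 1.5-fold lower with OVA under vehicle and at least 1.5-fold higher with OVA under ribavirin in the same class, with 1 library on each side, and the difference between the 2 was not tested. The share of all genes that did so is not given here, so the 5 are described as single genes and their number is not read as a result. In neutrophils, Chac1 had a log2 ratio of -0.96 under vehicle and 0.84 under ribavirin, Mzb1 one of -0.86 and 1.12, and Txndc11 one of -0.59 and 0.64, where the median of all genes was -0.45 and 0.23. In T cells, Mzb1 had a log2 ratio of -0.87 under vehicle and 0.98 under ribavirin. The Mzb1 levels in neutrophils and T cells are read as background, whose origin was not tested. Gated plasma cells were 0.332% of the kept cells in Vehicle-OVA and 3.30% in Ribavirin-OVA. Mixed cells led by plasma cell markers are not counted as plasma cells in these shares, and a link of the shares to the Mzb1 levels was not tested. In conventional dendritic cells, Edem2 had a log2 ratio of -1.95 under vehicle and 0.88 under ribavirin, the former on 1 UMI in Vehicle-OVA.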

How the results depend on the processing

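No paired analysis was possible because the labels give 1 library per group and no replicate numbers. The median log2 ratio of the members in plasma cells over macrophages, 2.75, was 2.88 under a strict gate, 2.69 under a loose gate, 2.81 with cells thinned to 1000 UMIs, 2.87 with a total free of mitochondrial and ribosomal protein genes, 2.92 relative to the median of all genes, 2.61 with 10 CPM added, 2.80 with a minimum of 500 UMIs, 3.06 against monocytes, 3.54 against neutrophils and 3.02 against the mean of the 3 myeloid classes. It was 2.58 with mixed cells kept, an alternative chosen after seeing the data, as were leaving out shared barcodes and leaving out Vehicle-OVA. With 10 CPM added, Mzb1, Fkbp11 and Derl3 moved from 9.31, 8.11 and 7.32 to 8.24, 5.68 and 5.17. Of 672 values of the called members, 668 kept the call. In pDC the median, 0.55, was 0.73 with the reduced total, 0.39 relative to all genes, 0.80 against monocytes, 1.48 against neutrophils and 0.78 against the mean, and 191 of 210 values kept the call; Prdx4 was reversed against neutrophils, at 0.78. With OVA, the median in plasma cells turned to -0.17 under vehicle and -0.26 under ribavirin relative to all genes, and was 0.10 under ribavirin with the reduced total. In macrophages under vehicle it was 0.52 under the strict gate, 0.23 with the reduced total, 0.12 relative to all genes and 0.24 with mixed cells kept, and under ribavirin 0.18 and 0.0672 with the reduced total and relative to all genes. Ddit3 in plasma cells under vehicle, on 31 UMIs in Vehicle-OVA, turned from 0.62 to -5.567 under the strict gate, -0.0929 with a gate without Jchain and Prg2, -0.82 without cells over 2 times the median UMIs and -0.32 as a mean over cells. Counts past the fold moved by over 1.5 times in pDC, from 9 higher to 20 against neutrophils and from 1 lower to 3 against neutrophils and to 0 against monocytes, with thinned cells, with 10 CPM added or with mixed cells kept. Against neutrophils, 2428 of all 13147 genes were higher in pDC and 1403 lower by the same rule. With OVA, the members lower in plasma cells moved from 6 to 11 under the strict gate (vehicle) and from 7 to 4 under the loose gate and without Jchain and Prg2 (ribavirin), and the members higher in macrophages under ribavirin from 9 to 14 with mixed cells kept. For the other alternatives the shares of all genes are not given here, so these counts are not read as a result about the members. Relative to all genes, plasma cells had 9 higher and 10 lower under vehicle and 6 and 14 under ribavirin. The share of all genes under that rule is not given here, so these counts are not read as a result about the members. The cause of these changes was not tested. Sparse genes in the 58 plasma cells of Vehicle-OVA are limited by depth.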
